A study of Mus musculus with 8 samples.

Results

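The Frizzled, Sfrp and TCF/LEF genes studied here are 10 genes of the Wnt pathway: the receptor genes Fzd1, Fzd3, Fzd5, Fzd8 and Fzd9, the secreted antagonist genes Sfrp1 and Sfrp2, and the nuclear factor genes Tcf7l1, Tcf7l2 and Lef1. They are 10 of 21887 protein-coding genes in the RefSeq table. PRDM16 ChIP-seq peaks were assigned to them when the summit lay in the gene body, or within 100 kb of its nearer end with no closer protein-coding gene. By this rule they held 29 and 50 of the 13852 and 26652 regions in the 2 wild-type (WT) libraries. In the conditional knockout (cKO) libraries they held 2 and 2 of 4553 and 3088.

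Chromatin came from lysates of the whole mouse cortex at E15.5, with 2 PRDM16 ChIP libraries per genotype. WT embryos had the genotype Prdm16 flox/flox, without Cre. The cKO embryos had the genotype Emx1Ires-Cre; Prdm16flox/flox, so both groups carried the floxed alleles. Cre from the Emx1 locus acts in the dorsal telencephalic lineage, and cells of other origin in a whole cortex, such as interneurons, vessels and microglia, keep the gene. Peak lists hold no expression values, so neither the tissue's markers nor the loss of Prdm16 could be checked in them. The labels do not say whether replicates came from separate embryos, so differences are read against the spread between libraries, which may be technical.

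PRDM16 is a zinc-finger protein that binds chromatin in radial glia, the stem cells that line the ventricle of the developing cortex. In Wnt signalling, secreted Wnt ligands bind Frizzled receptors at the cell surface, and Sfrp proteins carry a Frizzled-like domain with which they bind ligands outside the cell. When the canonical branch is active, beta-catenin enters the nucleus and joins DNA-bound TCF/LEF factors, which otherwise keep target genes silent. In the embryonic cortex this pathway takes part in the upkeep of radial glia, in patterning from the cortical hem and in hippocampal growth.

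Start-site sequences are shown for 4 genes in which the nearest WT summit lay between 253 bp (Fzd1) and 3696 bp (Lef1) from the start shown. Only the Tcf7l2 sequence holds bases of a WT region, and those of Fzd1, Fzd9 and Lef1 hold 0. A second start of Tcf7l2, with a summit of WT replicate 2 at 1485 bp, is not shown. They come from the RefSeq promoter table (GRCm38.p6), which held 7 of the 10 genes with 11 start sites. Each is the 250 bases before the start, 5′ to 3′ on the gene's strand. In Tcf7l2 (chr19:55741560-55741809, plus strand) capitals mark the 15 bases inside a region of WT replicate 2. In Fzd1 (chr5:4758217-4758466, minus strand) and at an internal start of Lef1 (chr3:131156044-131156293, plus strand) capitals mark CTTTGA or ACAAAG on either strand. Fzd9 (chr5:135251048-135251297, minus strand) held none of the motifs searched.
Tcf7l2: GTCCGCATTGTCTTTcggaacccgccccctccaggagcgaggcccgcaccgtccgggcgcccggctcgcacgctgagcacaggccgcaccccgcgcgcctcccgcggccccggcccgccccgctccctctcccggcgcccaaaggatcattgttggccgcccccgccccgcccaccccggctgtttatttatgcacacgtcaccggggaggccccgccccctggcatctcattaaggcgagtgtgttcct
Fzd1: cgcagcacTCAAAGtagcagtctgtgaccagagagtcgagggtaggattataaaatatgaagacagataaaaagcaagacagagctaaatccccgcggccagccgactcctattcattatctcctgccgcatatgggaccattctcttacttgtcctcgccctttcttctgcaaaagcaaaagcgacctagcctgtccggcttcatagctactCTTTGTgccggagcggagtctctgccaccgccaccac
Lef1: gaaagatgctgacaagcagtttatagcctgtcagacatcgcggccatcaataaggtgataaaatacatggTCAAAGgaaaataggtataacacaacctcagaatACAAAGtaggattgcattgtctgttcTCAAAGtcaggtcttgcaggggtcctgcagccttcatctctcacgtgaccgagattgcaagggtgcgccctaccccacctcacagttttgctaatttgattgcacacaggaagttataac
Fzd9: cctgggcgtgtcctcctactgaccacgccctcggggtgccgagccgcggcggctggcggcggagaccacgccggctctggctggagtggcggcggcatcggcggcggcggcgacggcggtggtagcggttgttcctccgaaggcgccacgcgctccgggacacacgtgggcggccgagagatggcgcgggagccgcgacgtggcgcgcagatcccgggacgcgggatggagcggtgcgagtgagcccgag

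These promoters were searched on both strands for letters bound by TCF/LEF factors (CTTTGA), by SOX or TCF/LEF factors (ACAAAG), by bHLH factors (CAGATG, and separately the E-box CAGCTG), by homeodomain factors (TAATTA) and by nuclear factor I (its palindromic motif). The first and second share the letters CTTTG on one strand. CTTTGA was found in 2 of the 11 member promoters, those shown for Fzd1 and Lef1, and in 13.8% of all 32851 promoter windows of the same length. ACAAAG was found in 4 of the 11 (at Fzd1, Tcf7l1, an internal start of Tcf7l2 and the internal start of Lef1) and in 16.5% of all. CAGCTG was found in 1 of the 11, at another start of Lef1, against 13.0% of all. CAGATG was in 0 of the 11, against 14.4% of all windows. The homeodomain letters and the nuclear factor I motif were also in 0 of the 11, against 4.84% and 0.0365%. A match describes the letters only. The strongest regions of the genes lay outside these windows, and their sequence was not analysed here.

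The lists differ in length, and genotype goes with more than genotype. Both WT lists carry a library identifier that neither cKO list carries, and no label says what it marks, so genotype and whatever it marks cannot be told apart. The genome background read from the peaks was 0.777 fragments per base for WT replicate 1, while WT replicate 2 had 1.78. It was 2.95 and 2.52 in the cKO lists, which were shorter and yet had the higher background. The cKO limit used here was a fold of about 3.37, the higher of 2 estimates of the fold from which most cKO regions were called. It is the 5th percentile of the folds in cKO replicate 2, so some regions there were called below it. A fold is the authors' enrichment of a summit over its local background. With 2 libraries against 2, an exact permutation test cannot give a p below 0.333.

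Most of the genes that had PRDM16 regions in WT cortex had none, or fewer, in cKO cortex. Of the 10 genes, 6 (Fzd8, Fzd9, Sfrp1, Tcf7l1, Tcf7l2 and Lef1) had more regions in each WT library than in either cKO library; 15.7% of all protein-coding genes did. An exact permutation test, two-sided, gave 0.333 for each of the 6. The same 6 genes held a region found in both WT lists and in neither cKO list, called a WT-only region, against 16.6% of all genes. Of the remaining genes, Fzd1 and Fzd3 were reached in 1 WT list each, and Fzd5 and Sfrp2 in 0 of the 4 lists. The genes were chosen with earlier results of these data known, so these counts describe them and are no test of the group. Summed over the 10 genes, the WT libraries held 39.5 ± 14.8 regions and the cKO libraries 2.0 and 2.0 (mean ± SD, n = 2).

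**Figure D1:**
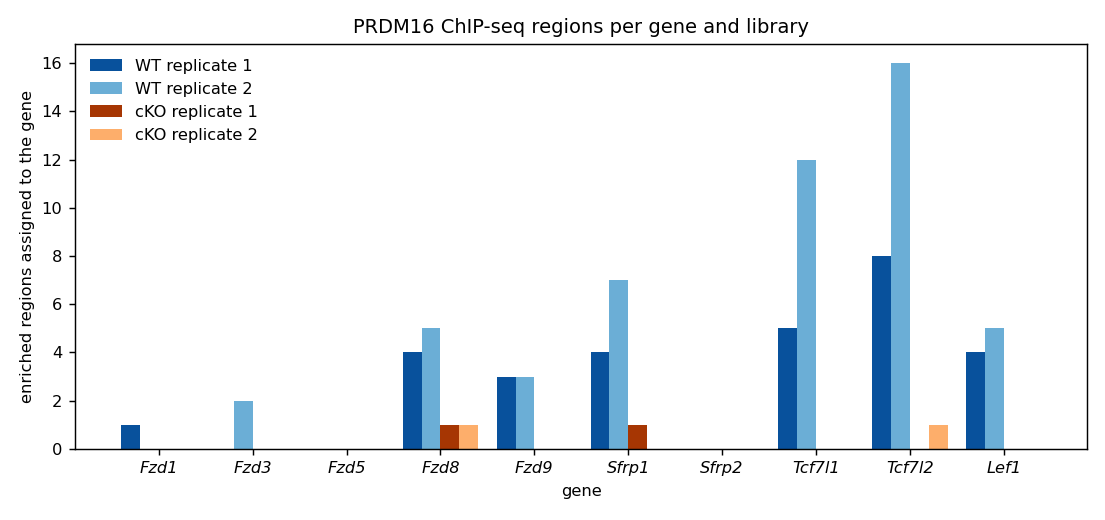
Number of PRDM16-enriched regions (vertical axis) assigned to each of the 10 genes (horizontal axis) in each of the 4 ChIP libraries (bars). Tcf7l2 had the most regions in both WT libraries, 8 and 16, and the only genes with a cKO bar are Fzd8, Sfrp1 and Tcf7l2, with 1 region in a library.

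The 6 genes together held 25 regions found in both WT lists, and 25 of 25 were in neither cKO list (100%, exact Clopper-Pearson 95% interval 86.3 to 100, counting error only). Over all 10090 regions of both WT lists that share was 91.5%, which lies inside the interval. A region absent from the cKO lists may keep a weaker signal there, in fewer cells or at lower occupancy, which cannot be told apart in a lysate. In all 25 the lower WT fold was above the cKO limit of 3.37, as in 98.6% of all regions of both WT lists. The 5th percentiles of the folds in WT replicates 1 and 2, 4.22 and 3.58, already lay above this limit. Passing it was therefore nearly fixed by the calling in both WT lists and shows little about the cKO lists. The lower WT fold divided by 2 was above the limit in 9 of the 25 (36.0%), against 43.5% of all. Without WT replicate 1, that is with the longer list alone, 49 of its 50 regions at the genes were in neither cKO list. Over that whole list, only 5.29% and 4.11% of regions were found in cKO replicates 1 and 2. With all 4 lists at the length of the shortest, 3088 regions, the genes held 10 and 9 regions in the WT libraries and 1 and 2 in the cKO libraries. At that length there were 7 WT-only regions at 5 genes, against 4.99% of all genes, and Lef1 had 0. More regions in each WT library than in either cKO library were then seen at 4 of the 6 genes, against 3.80% of all genes; Fzd8 and Lef1 lost that call.

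Among the receptors, Fzd8 and Fzd9 stood out by regions shared between the WT libraries. Fzd8 encodes a Frizzled receptor that can signal through beta-catenin. It had 4 regions in WT replicate 1, with 5 in replicate 2, and each cKO list held 1. The WT counts lay above the cKO counts by 3.5 regions on average, with 3 WT-only regions. With lists of equal length Fzd8 had 1 and 2 regions in the WT libraries and 1 and 1 in the cKO libraries, a difference of 0.5. The counts were the same when only summits in the gene body were used, so the groups overlapped under both settings.

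The strongest Fzd8 region lay across a gene end, at chr18:9215916-9216926, with its summit 149 bp outside the gene. Its WT folds were 13.5 and 15.6, or 14.5 ± 1.47. At the summits 34 and 56 fragments stood over local backgrounds of 1.6 and 2.66. Both libraries therefore placed it clear of the cKO limit, also after division by 2. A second WT-only region lay in the gene body at chr18:9214824-9215102, with folds of 3.96 and 5.16. It is among the weakest of the 25, ranking 9689 of 10090 by mean fold. The third, at chr18:9147489-9148055, lay 65.2 kb outside the gene and differed most between the WT libraries, with 3.80 and 14.7. WT replicate 1 alone held a 7.88-fold region 1687 bp outside the gene, and WT replicate 2 alone held regions of 5.24 and 4.26.

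Fzd8 was also the only one of the 10 genes with a region in both cKO lists; 6.83% of all genes had one. This region, at chr18:9213384-9213702 in the gene body, had folds of 5.16 and 5.54 in cKO replicates 1 and 2, with 22 and 21 fragments at the summit. Its summit lay 756 bp from a gene end, the opposite end from the strongest WT region. Neither WT list held it. The nearest WT summits were 1348 to 1554 bp away, in the weak body region named above. Thus both genotypes had enriched DNA within the short Fzd8 gene, at positions that did not overlap. Over the whole lists, only 21.5% to 35.5% of the regions of a cKO list were found in a given WT list.

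Fzd9, a receptor gene expressed in the hippocampal primordium and in neural precursors, had 3 and 3 regions in the WT libraries and 0 and 0 in the cKO libraries. Its strongest region, at chr5:135253631-135254426, had folds of 17.8 and 18.2 (18.0 ± 0.307), the closest agreement among the 9 regions that kept a margin over the cKO limit. At its summit 41 and 68 fragments stood over backgrounds of 1.36 and 2.79. The summits of the WT libraries lay 8 bp apart, 2887 bp outside the gene on the side of the start whose promoter is shown above. A second WT-only region, at chr5:135258661-135258903, had 4.20 and 4.22. WT replicate 1 alone held a 6.55-fold region 7210 bp outside the gene, and WT replicate 2 alone a 5.71-fold region 2041 bp outside. All regions of Fzd9 lay outside the gene on the start side, so with summits in the gene body only it had 0 in all 4 libraries. The genome nearest to this gene was only 23.8 kb long, the smallest share of the 10 genes, so its 2 WT-only regions amount to 8.39 per 100 kb.

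The other receptor genes had few or no regions. Fzd1, a receptor gene that can act through beta-catenin, had 1 region in WT replicate 1, at chr5:4757939-4758104, with a fold of 5.65 and 10 fragments at the summit. That summit lay inside the gene, 253 bp past the start whose promoter is shown above, and WT replicate 2 and both cKO lists had no region at the gene. Fzd3, whose product guides growing axon tracts, had 2 regions in WT replicate 2 alone, with folds of 4.95 (20248 bp outside) and 5.28 (in the body). Fzd5, a receptor gene with a role in eye development, had 0 in all 4 libraries. The nearest summits to Fzd5 were 71.6 and 53.9 kb away in WT replicates 1 and 2 and were closer to Plekhm3. The genome nearest to Fzd5 was 35.3 kb long, against 127 kb for Fzd1 and 93.4 kb for Fzd3. None of these 3 genes had a region in both WT lists.

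**Figure D2:**
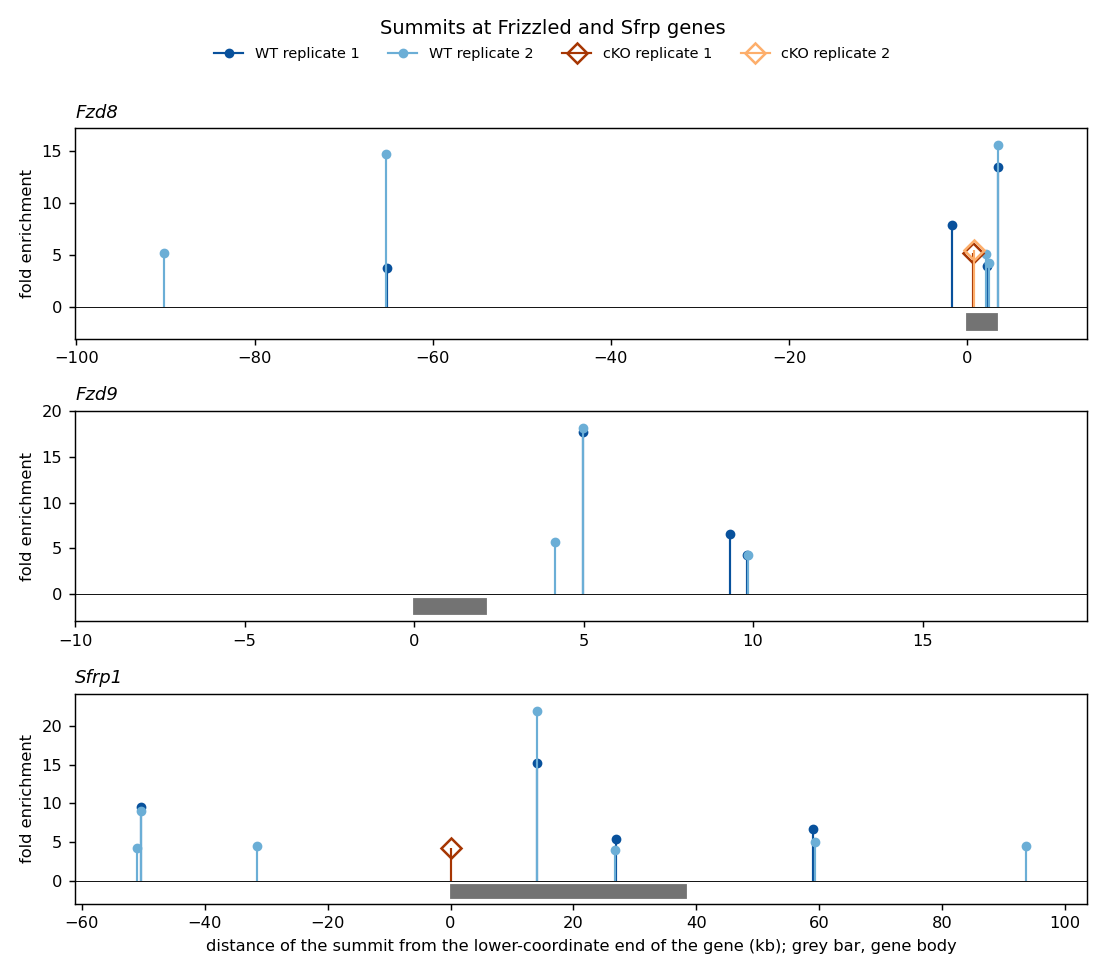
Positions of the summits at Fzd8, Fzd9 and Sfrp1 (horizontal axis, kb from the lower-coordinate end of the gene) and their fold enrichment (vertical axis), by library; filled circles are WT, open diamonds cKO, and the grey bar is the gene body. The strongest summits of both WT libraries coincide at each gene, at 13.5 and 15.6 for Fzd8, 17.8 and 18.2 for Fzd9 and 15.3 and 22.0 for Sfrp1, while the cKO diamonds of Fzd8 and Sfrp1 stand apart from them.

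The secreted antagonist genes differed from each other. Sfrp1, which is expressed in the ventricular zone of the cortex, had 4 and 7 regions in the WT libraries and 1 and 0 in the cKO libraries. It had 4 WT-only regions, a number that 2.13% of all genes reached or passed. Sfrp2, its close relative, had 0 regions in all 4 libraries.

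The strongest Sfrp1 region, at chr8:23423885-23425807, was also the widest of the 25, at 1923 bp. It lay in the gene body, 14.1 kb from the nearer end, with folds of 15.3 and 22.0 (18.6 ± 4.80). There 31 and 66 fragments stood over backgrounds of 1.1 and 2.04. The next region, at chr8:23360748-23361208, lay 50.3 kb outside the gene with 9.57 and 8.97, and its WT summits were 11 bp apart. The 2 weaker regions had 5.33 and 4.03 in the gene body (chr8:23437969-23438530) and 6.68 and 5.07 at 20.8 kb outside (chr8:23470051-23471037). WT replicate 2 alone held 3 further regions, with folds of 4.20 to 4.54. In cKO replicate 1 the 1 region, at chr8:23411428-23411634, had a fold of 4.29 and 16 fragments, and its summit lay 155 bp inside a gene end. No WT list and not the other cKO list held that region, and the nearest WT summit was 13870 bp away.

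Around Sfrp2 the genome nearest to the gene was 140 kb long, longer than that of Fzd8. The nearest summits in both WT lists lay 156 kb away, beyond the reach of 100 kb, with folds of 4.67 and 6.0 in WT replicates 1 and 2. In the cKO lists the nearest summits were 266 and 265 kb away.

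The nuclear factor genes held most of the regions. Tcf7l1, Tcf7l2 and Lef1 had 5, 8 and 3 WT-only regions, 16 of the 25. At least 3 such regions were found at 3.71% of all genes. The genome nearest to these genes was long, at 193, 349 and 219 kb. Per 100 kb they had 2.59, 2.29 and 1.37 WT-only regions, against 2.23 for Fzd8, 8.39 for Fzd9 and 1.87 for Sfrp1. The products of Tcf7l1, Tcf7l2 and Lef1 bind the same DNA letters through an HMG box, and Tcf7l1 is known mainly as a repressor.

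Tcf7l1 had 5 and 12 regions in the WT libraries and 0 and 0 in the cKO libraries. All its regions in both WT lists lay inside the gene, which is 162675 bp long. The strongest region of all 10 genes was here, at chr6:72667051-72667802, with folds of 22.7 and 35.7 (29.2 ± 9.17). At the summits, 14 bp apart, 58 and 103 fragments stood over backgrounds of 1.6 and 1.91. It ranked 131 of the 10090 regions of both WT lists by mean fold. Next came chr6:72645049-72645844, with 23.0 and 12.9 (18.0 ± 7.13), and chr6:72711297-72712009, with 16.7 and 10.3 (13.5 ± 4.52). These 2 were higher in WT replicate 1 and the strongest region was higher in WT replicate 2. The order of the 3 is therefore not the same in both libraries. A region at chr6:72730241-72731120 had 4.71 and 14.0, and one at chr6:72647415-72647722 had 9.95 and 6.14. The 7 regions of WT replicate 2 alone had folds of 4.10 to 6.62. No region of either WT list lay within 1 kb of an end of Tcf7l1, and the WT-only regions lay at least 19.1 kb from the nearer end.

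Tcf7l2, a factor gene of the same family, had 8 and 16 regions in the WT libraries and 0 and 1 in the cKO libraries. Its 8 WT-only regions were the most of the 10 genes, and 89 genes had as many or more. The genome nearest to Tcf7l2 was also the longest, at 349 kb, so that it had 2.29 WT-only regions per 100 kb, against 2.59 for Tcf7l1. The strongest region lay beyond the end of the gene, at chr19:55940547-55941748, 7589 bp outside, with folds of 17.4 and 18.2 (17.8 ± 0.520). There 30 and 52 fragments stood over backgrounds of 0.777 and 1.91. The second, at chr19:56029351-56030157, lay 95.9 kb outside, near the limit of the reach, with 10.6 and 13.2. The 6 others lay inside the gene and were weaker, with mean folds of 5.18 to 6.86.

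Tcf7l2 and Fzd8 were the 2 genes with a both-WT region within 1 kb of a gene end; 3.15% of all genes had one. At the start of Tcf7l2, the region at chr19:55742063-55742452 had folds of 5.14 and 5.22, with summits 349 and 340 bp past the start in WT replicates 1 and 2. WT replicate 2 alone held a region just before the start, with a fold of 5.57, which covers the 15 capital bases above. Between them lay the rest of the promoter window, which no region of either WT list covered. A pair of WT-only regions followed inside the gene, at chr19:55743426-55743645 (6.80 and 3.91) and chr19:55749675-55750105 (7.49 and 6.23). In cKO replicate 2, a region at chr19:55880635-55880891 had a fold of 4.27 and 22 fragments. It overlapped a 4.37-fold region of WT replicate 2, with summits 17 bp apart, which WT replicate 1 lacked. This was the only one of the genes' cKO regions that overlapped a WT region. Over the whole lists, 21.5% and 30.9% of the regions of cKO replicate 1 were found in WT replicates 1 and 2. For cKO replicate 2 these shares were 25.8% and 35.5%, so lack of overlap is common in the cKO lists.

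Lef1, a factor gene needed for hippocampal development, had 4 and 5 regions in the WT libraries and 0 and 0 in the cKO libraries. Its regions were weak. The strongest WT-only region, at chr3:131181847-131182597, had 7.84 and 5.85 (6.85 ± 1.41), with 14 and 18 fragments over 0.912 and 2.25. The others had 5.14 and 6.33 at chr3:131137186-131137497, in the gene body, and 4.67 and 5.19 at chr3:131072596-131072900, 37.5 kb outside. Near the internal start shown above, WT replicate 1 held a region at chr3:131160800-131160999 with 6.20 and WT replicate 2 one at chr3:131159884-131160341 with 6.07. Those summits lay 4563 and 3696 bp past that start, and the regions did not overlap, so they were not counted as shared. No Lef1 region had a WT fold above the cKO limit in both libraries after division by 2.

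**Figure D3:**
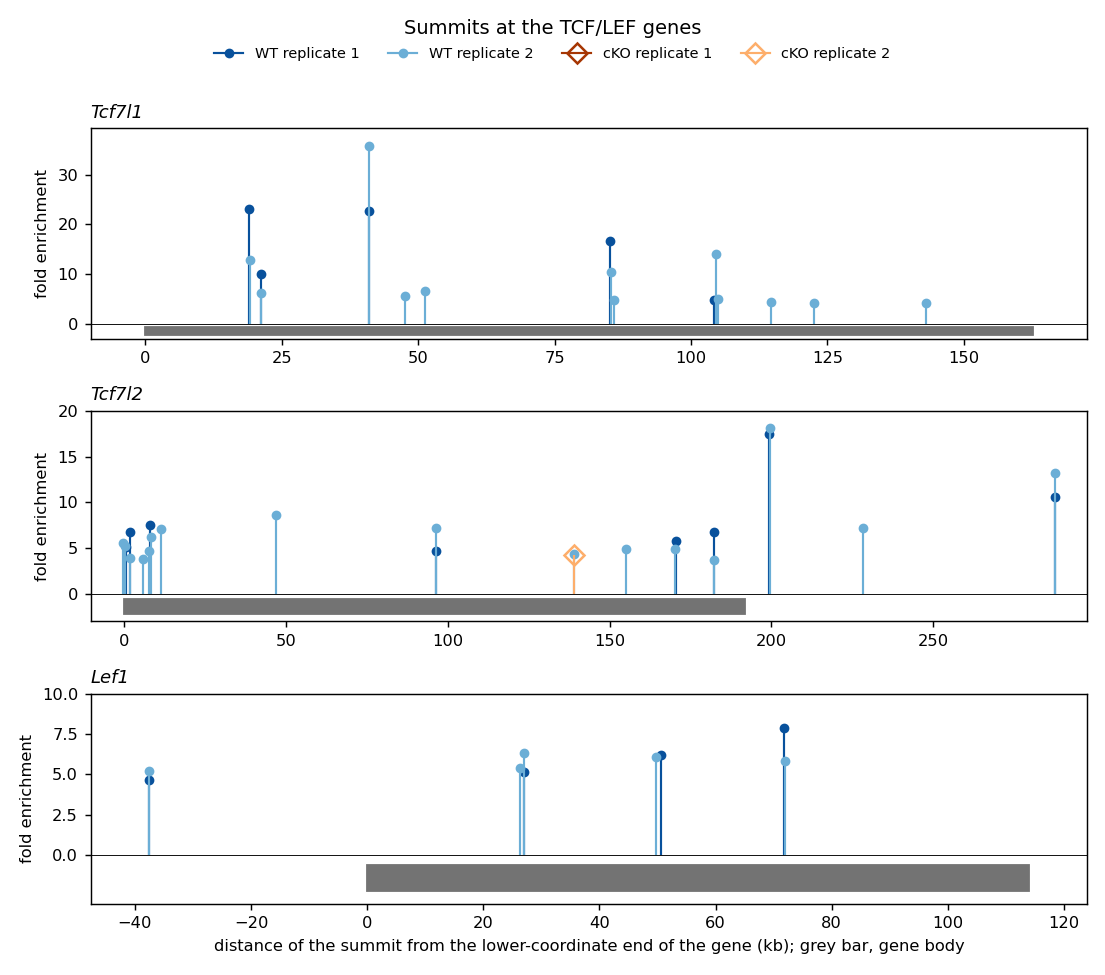
Positions of the summits at Tcf7l1, Tcf7l2 and Lef1 (horizontal axis, kb from the lower-coordinate end of the gene) and their fold enrichment (vertical axis, scaled per gene), by library; filled circles are WT, open diamonds cKO, and the grey bar is the gene body. Tcf7l1 carries its strongest summits, up to 35.7, inside the gene, Tcf7l2 its strongest, 17.4 and 18.2, beyond its end, and no summit of Lef1 passes 7.84.

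The 25 regions were then set beside those of other genes. Their median mean fold was 6.86, against 7.33 for the 8057 regions of both WT lists assigned to other genes. Their median width was 567 bp against 528 bp. Of the 25, 16 (64.0%) lay in a gene body, against 61.1%, and 2 (8.0%) lay within 1 kb of a gene end, against 8.59%. Their number per length was higher: the genes had 1.64 WT-only regions per 100 kb of nearest genome, against 0.384 over all genes. This ratio describes a chosen group and carries no test. Within it the 10 genes ranged from 0 to 8.39.

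Between the WT replicates, 25 of the 29 regions of replicate 1 (86.2%) were found in replicate 2, and 25 of the 50 of replicate 2 (50%) in replicate 1. Over the whole lists these shares were 78.2% and 38.7%. The paired summits of the 25 regions lay a median of 86 bp apart, against 56 bp over all regions. The fold was higher in replicate 2 for 14 of the 25, and for 6028 of all 10090 regions of both WT lists. By ratio the widest disagreements were 3.80 against 14.7 at Fzd8 and 4.71 against 14.0 at Tcf7l1.

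**Figure D4:**
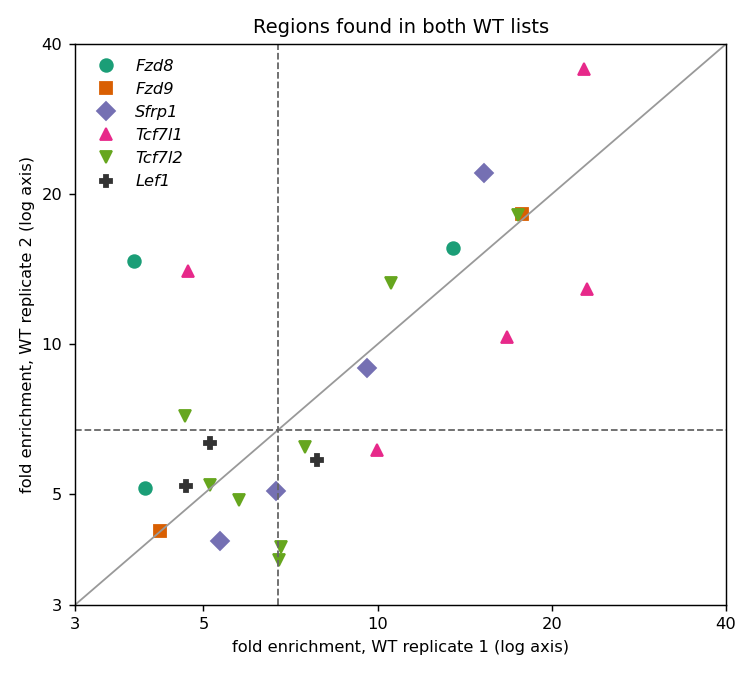
Fold enrichment of the 25 regions found in both WT lists, WT replicate 1 (horizontal) against WT replicate 2 (vertical), both on log axes, with the line of equality in grey; dashed lines mark 2 times the cKO limit of 3.37. The 9 points above and to the right of both dashed lines belong to Fzd8, Fzd9, Sfrp1, Tcf7l1 and Tcf7l2, with none of Lef1.

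Other genes of the pathway were read from a list of 61 receptors, modulators, transducers and nuclear partners, without the ligands. Of these, 24 had a WT-only region (39.3%), against 16.6% of all genes and 6 of the 10 genes above. More regions in each WT library than in either cKO library were seen at 25 (41.0%), against 15.7% of all genes. A region in both cKO lists was found at 4 (Dkk3, Axin2, Ror2 and Celsr2), or 6.56%, close to the 6.83% of all genes.

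Among the other Frizzled receptor genes, only Fzd2 of 5 had a WT-only region, with 7.88 and 6.34. Of 11 genes of secreted or surface antagonists 4 had one, among them Dkk2 and Wif1 with 3 each. Dkk2 encodes a Dickkopf antagonist and Wif1 a Wnt-binding inhibitor, and their strongest regions had 7.84 and 9.93, and 9.71 and 12.8. Of the 9 nuclear partner genes 4 had one. Among them are corepressor genes of the Groucho family that bind TCF/LEF factors, Tle3 with 12 WT-only regions (strongest 17.4 and 33.6, 78725 bp outside the gene) and Tle4 with 6 (16.6 and 23.0). Counted with those that a cKO list also held, Tle3 had 13 and Tle4 7 regions of both WT lists. Tle3, Tle4 and Wif1 each had 1 region in 1 cKO list, and Dkk2 had 0 in both.

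The beta-catenin gene Ctnnb1 had 4 WT-only regions, the strongest 63970 bp outside the gene with 9.89 and 11.6. Nkd1, an inhibitor of Dishevelled, had 3 (strongest 14.2 and 10.03). The ubiquitin ligase gene Znrf3, which removes Frizzled receptors from the surface, had 4 (strongest 8.47 and 14.5). Ror2, a co-receptor gene for non-canonical signalling, had 4 WT-only regions, and it also had a region in both cKO lists, with 6.85 and 6.13, that was found in a WT list. Vangl2 and Celsr1, planar polarity genes, had 3 WT-only regions each, with strongest folds of 12.1 and 16.5, and 10.8 and 19.5. In cKO replicate 1 Vangl2 had 2 regions and Celsr1 had 1, and in cKO replicate 2 both had 0. Ctnnb1, Nkd1 and Znrf3 had 0 in both cKO lists. For Axin2, the feedback target of the pathway, a region with cKO folds of 4.16 and 4.02 was found in a WT list too. The cKO region of the planar polarity gene Celsr2, at 3.42 and 5.74, was found in a WT list as well. Dkk3, a Dickkopf family gene, had 2 regions in both cKO lists, with folds of up to 9.56 and 6.21 in cKO replicates 1 and 2, and 1 of them was in a WT list.

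**Figure D5:**
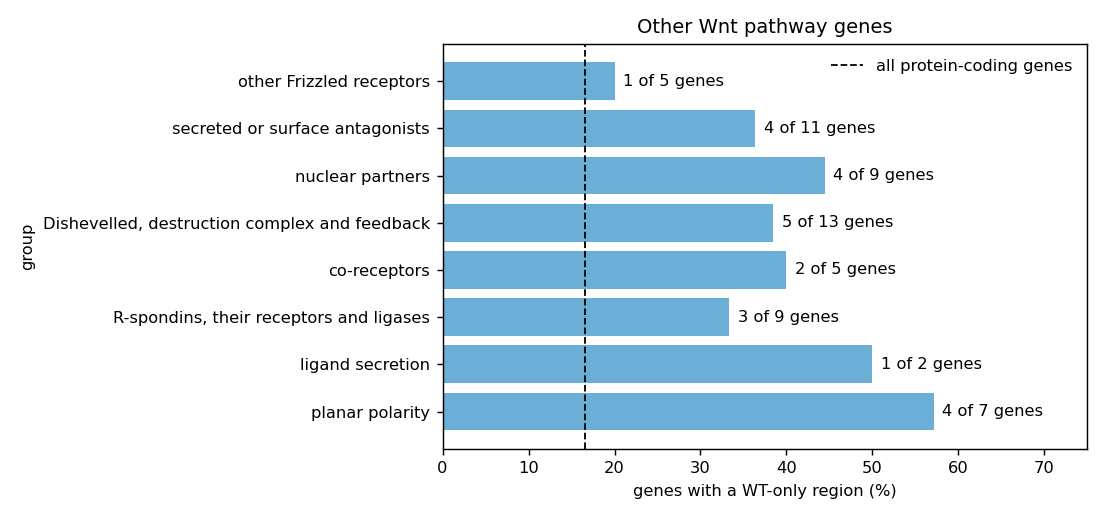
Share of genes with a WT-only region (horizontal axis, percent) in 8 groups of other Wnt pathway genes (vertical axis); the dashed line is the share over all protein-coding genes, 16.6%. The groups are small, from 2 to 13 genes, and the planar polarity group reaches 4 of 7.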

How the data were processed

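PRDM16 ChIP-seq was measured in 4 libraries of E15.5 cortex, 2 WT and 2 cKO; the 4 input libraries were not analysed here. Per the submitters' processing notes the tools were FastQC, cutadapt, Bowtie2 2.2.8 and MACS2 2.1.1 on mm10, with settings and the control of each library not given in the sources used here. The authors deposited 1 peak list per library, with the fold enrichment of each summit as a ratio over local background. The significance of each peak is deposited as −log10 of the p-value and of the q-value, and the largest q-value kept was 0.0440 to 0.0491. The deposited score repeats the q-value and was not used.

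Only the assembled chromosomes 1 to 19, X and Y were used (12 to 37 lines on other sequences per list were left out). Overlapping intervals within a list were to be merged, and none overlapped. Regions of different lists were shared with at least 1 bp of overlap. Gene bodies came from RefSeq (GRCm38.p6, the mm10 assembly), with 21887 protein-coding genes; a summit inside several genes counted for each. Strand was known only where the promoter table gave it. No genome was used, so exons, introns and sequence under the peaks were not separated. Positions are 1-based.

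Read totals are not in the lists. Whole-number fragment pileups and local backgrounds were solved from the deposited fold and p-value, and were found for every summit tested (3 and 18 of the most significant WT summits were not tested). The cKO limit is the higher of the fold needed to pass at the median background (3.18 and 3.29) and the 5th percentile of folds called (3.29 and 3.37). Folds describe peaks within a list, and no fold of a WT region was set against that of a cKO region. WT folds were set against the cKO limit only to ask whether a signal of that fold could have been called in the cKO lists, which assumes that folds of different libraries are on 1 scale; this was not tested. Tests were exact permutation tests over the 4 libraries, per gene, two-sided (scipy 1.17.1); scripts were tested on simulated lists. The members and gene lists were chosen with earlier results of these data known. For each member, the strongest both-WT region, any cKO region and any region within 1 kb of a gene end are named, and the other regions in brief. Pathway genes are named with at least 3 WT-only regions or a region in both cKO lists; Fzd2 was named after its values were seen. Alternatives were stricter q-values, equal list lengths, shorter reach, other overlap rules, leaving out each library, and pairing by replicate number.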

Additional observations from a re-analysis of the deposited data

How the results depend on the processing

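The WT minus cKO difference in regions summed over the 10 genes (37.5 as reported) kept its direction under every alternative run for it. WT-only regions (25 as reported) are a count, which has no direction to keep, and ranged from 7 to 49. WT-only regions numbered 14 with −log10 q of at least 5 and 9 with the lower WT fold divided by 2. With lists of equal length the difference was 8.0 and the WT-only regions 7; in the gene body only they were 23.5 and 16. Leaving out 1 library at a time gave 25 to 49 WT-only regions, the highest without WT replicate 1, and differences of 27.0 to 48.0. Where a WT library was left out, WT-only meant a region of the remaining WT list that was in neither cKO list. More regions in each WT library than in either cKO library were seen at 4 genes with lists of equal length (without Fzd8 and Lef1) and at 4 in the gene body only (without Fzd8 and Fzd9), against 6 as reported. Among values recomputed for the comparisons 44 stayed within 1.5 times or within their interval and 7 moved. For single genes 89 stayed and 21 moved, with 0 reversed. Some of these values could not move. The mean over replicate pairs equals the unpaired difference, and leaving intervals unmerged changes nothing where none overlapped. Counts and shares cannot reverse, so only the WT minus cKO differences could have done so. The cause of the moves was not tested beyond the shorter lists or reach. With the replicate number as a block the difference was 37.5 (27 and 48 in the pairs), exact p = 0.5, the smallest that 2 pairs allow. Over genes the deviations of same-numbered libraries correlated at -0.107. Crossed pairing, added after seeing the data, gave 6 genes higher in both pairs, as did the numbering in the labels, and 0 calls in each. Neither count could differ between pairings. These 6 genes had every WT count above every cKO count, the other genes lacked regions in a WT list, and 2 pairs cannot reach a call. Libraries of 2 per genotype and unknown read totals limit what a missing region shows.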

Other observations

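Regions beyond the reach show what the limit of 100 kb leaves out. Between 100 and 200 kb from a gene of the group, with no closer protein-coding gene, the 4 lists held 15 regions. A region found in both WT lists is counted once for each list. Of the 15, 0 were in a cKO list. The whole cKO lists held 4553 and 3088 regions, against 13852 and 26652 in the WT lists, so most regions of any kind come from the WT lists. Tcf7l2 had one 129 kb away in both WT lists, with folds of 7.70 and 9.02 in WT replicates 1 and 2. Lef1 had one at 147 kb with 5.54 and 7.51, and Fzd8 one at 186 kb with 5.61 and 6.60. Sfrp2, which had no assigned region, had regions at 156 and 179 kb in both WT lists, with 4.67 and 6.0, and 5.23 and 5.78.

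Within 100 kb of the genes lay 7 regions of both WT lists that belonged to a closer gene, and 7 of the 7 were in neither cKO list, against 91.5% of all regions of both WT lists. Near Fzd1 there were 3, in the body of Cdk14, a cyclin-dependent kinase gene, with folds of 12.6 and 21.2, 10.01 and 14.5, and 8.22 and 8.79 at 56.4, 63.4 and 54.1 kb from Fzd1. Near Fzd3 a region in the body of Extl3 had 6.67 and 19.2. Near Fzd9 there were 2 closer to Fkbp6, with 8.06 and 11.7, and 6.16 and 8.44. Near Tcf7l1 there was 1, in the body of Elmod3, with 4.77 and 4.49. The cKO lists also held regions of closer genes within this range. At 42.3 kb from Fzd3 both cKO lists had one assigned to Extl3, with 3.86 and 7.16 in cKO replicates 1 and 2. From Fzd9 the nearest was 57.1 kb away in cKO replicate 1 (Baz1b, 4.81) and 35.3 kb in cKO replicate 2 (Fkbp6, 5.97). From Tcf7l1 it was 92.1 kb away in cKO replicate 2 (Sh2d6, 4.27). Which gene such regions act on was not tested.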
